A study of Mus musculus with 10 samples.

Results

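The genes described here encode the pore-forming subunits of the voltage-gated calcium channels found in neurons: Cacna1c and Cacna1d (L-type), Cacna1a (P/Q-type), Cacna1b (N-type), Cacna1e (R-type), and Cacna1g, Cacna1h and Cacna1i (T-type). They were chosen by gene symbol, with no threshold on measured values, and are 8 of the 48709 genes in the count tables. All 8 had enough reads to enter the tests, in which 16884 genes took part. RNA came from mouse primary hippocampal neuronal cultures, and every culture received lipid nanoparticles carrying RNA for 48 h, from day 10 to day 12 in vitro. The control group (2 libraries) received scramble RNA, another (4 libraries) anti-miR-409-5p and the third (4 libraries) anti-miR-501-3p; an anti-miR is an antisense oligonucleotide that binds and blocks a microRNA. The series title describes both microRNAs as induced by exercise and concerns neurons in which they are silenced. The labels give neither the strain nor the age of the animals, and no culture without nanoparticles was analysed here. Whether replicate libraries stem from separate cultures is not stated, so a p-value here reflects how far the libraries spread, which may be technical. Polyadenylated RNA was sequenced, so the mature microRNAs were not measured and their block could not be checked.

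A voltage-gated calcium channel opens when the membrane depolarises and lets calcium into the cell, where it acts as a messenger. The pore subunit forms the ion path and senses voltage, and it sets the channel type. L-type channels on the cell body and dendrites couple activity to gene expression, P/Q- and N-type channels at presynaptic terminals trigger transmitter release, R-type channels act in dendrites, spines and terminals, and T-type channels open at voltages near rest and favour burst firing. The high-voltage types (L, P/Q, N and R) assemble with auxiliary beta and alpha2delta subunits, which control how many channels reach the membrane.

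The sequences of the targeted microRNAs are shown because bases 2 to 8, the seed, pair with messenger RNAs that a microRNA represses. The mature sequences are from RefSeq (build GRCm38.p6), written 5′ to 3′ with the seed in capitals.
miR-409-5p: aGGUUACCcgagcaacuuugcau
miR-501-3p: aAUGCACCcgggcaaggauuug
miR-409-5p lies at chr12:109743172-109743194 on the plus strand and miR-501-3p at chrX:7241270-7241291 on the minus strand. Their seeds differ.

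The longest annotated 3′ untranslated region (3′ UTR) of a protein-coding transcript of each gene was searched, on the strand of the messenger RNA only, for letters that pair with the seed. For miR-409-5p the search took GGTAACC, which pairs with bases 2 to 8. It also took GTAACCA, which pairs with one base fewer and ends in an A. For miR-501-3p it took GGTGCAT by the same rule. The form ending in an A was here GTGCATA. Where both forms of 1 microRNA overlap, they make an 8-base match and were counted as 1. Matches to miR-409-5p were present in 2 of the 8 genes, Cacna1c and Cacna1e, and matches to miR-501-3p in 4, Cacna1b, Cacna1d, Cacna1e and Cacna1i. Each is written below with 10 bases on either side and the match in capitals, since these are the places where a direct effect of either anti-miR could be looked for.
Cacna1c, miR-409-5p, first match: gtgacctggaGGTAACCggaacagcgt
Cacna1c, miR-409-5p, second match: gagaggatgcGGTAACCAtcagacgggg
Cacna1e, miR-409-5p: cagagagtgaGTAACCAgaaactaaca
Cacna1e, miR-501-3p: ccagagtattGGTGCATctcgcctaac
Cacna1b, miR-501-3p: tgtgtgtggtGTGCATAtgtgtatgtg
Cacna1d, miR-501-3p: tcccatccagGGTGCATgcccatgccc
Cacna1i, miR-501-3p: ggcccttccaGTGCATAtgcagatata
In build mm10 (GRCm38) the Cacna1c matches lie at chr6:118593789-118593795 and chr6:118591933-118591940, 97 and 1952 bases past the stop codon. The Cacna1e matches lie at chr1:154392434-154392440 (miR-409-5p) and chr1:154390901-154390907 (miR-501-3p), 5953 and 7486 bases past the stop codon in a UTR of 7662 bases. Those of Cacna1b, Cacna1d and Cacna1i lie at chr2:24604912-24604918, chr14:30041783-30041789 and chr15:80395875-80395881. Of these genes Cacna1i is on the plus strand and the others are on the minus strand.

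The matches followed UTR length. Cacna1a, Cacna1g and Cacna1h, which held none, had UTRs of 538, 754 and 1818 bases, whereas Cacna1c and Cacna1e had UTRs of 6652 and 7662 bases. Over the 14207 tested protein-coding genes with a UTR (median length 1219 bases), 9.85% held a miR-409-5p match and 13.0% a miR-501-3p match, but among the 366 genes whose UTR had at least 6000 bases these shares were 39.1% and 50.0%. A match describes letters in the annotation and is not a shown binding site. When transcripts marked for nonsense-mediated decay were included, a choice made after seeing the data, Cacna1d also held a miR-409-5p match, giving 3 genes.

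**Figure D1:**
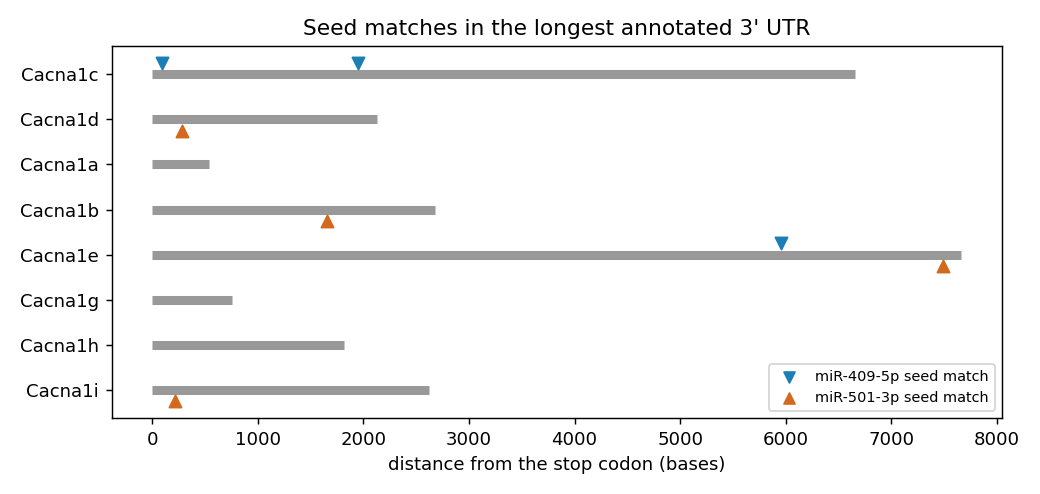
Seed matches in the 3′ UTRs of the 8 genes: grey bars span the UTR from the stop codon (x axis, bases), and triangles mark matches to miR-409-5p (blue, pointing down) and miR-501-3p (orange, pointing up). Cacna1c and Cacna1e have the longest UTRs, and Cacna1a, Cacna1g and Cacna1h hold no match.

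The libraries held 22254788 to 32096808 counts. Pairs of libraries correlated at 0.989 to 0.996 across genes and no pair was identical. Neuron markers summed to 6510 to 6685 CPM (counts scaled by library size) in control, 6983 to 7425 with anti-miR-409-5p and 6799 to 7417 with anti-miR-501-3p, which fits the label, though of these 6 genes 3 rose and 2 fell with each anti-miR. Excitatory neuron markers summed to 3740 to 3812, 3563 to 3637 and 3530 to 3714 CPM in the same order, with both anti-miR sums below control. Inhibitory neuron markers summed to 467 to 468, 493 to 503 and 475 to 499 CPM, with both sums above. The genes within these lists were mixed. Here and for the neuron markers, a marker counts as risen or fallen where edgeR gave an adjusted p under 0.05. Over all tested genes 15.6% were so called higher and 12.2% lower with anti-miR-409-5p, and 17.6% and 15.4% with anti-miR-501-3p. With anti-miR-409-5p, 1 excitatory marker rose and 1 fell, and 2 inhibitory markers rose and 1 fell. With anti-miR-501-3p, 2 excitatory markers rose and 2 fell, and 1 inhibitory marker rose and 2 fell. Astrocyte markers were present at 1738 to 1769, 1804 to 1848 and 1755 to 1792 CPM. Of these, 3 rose and 1 fell with anti-miR-409-5p, and 2 rose and 2 fell with anti-miR-501-3p. Oligodendrocyte lineage markers summed to 439 to 594, 400 to 494 and 343 to 473 CPM, vascular and fibroblast markers to 259 to 379, 239 to 320 and 308 to 385 CPM, and proliferating progenitor markers to 113 to 162, 139 to 168 and 103 to 152 CPM. With anti-miR-501-3p, 1 oligodendrocyte lineage marker rose and 1 fell, and 1 vascular and fibroblast marker rose. Of the progenitor markers, 2 rose with anti-miR-409-5p and 1 with anti-miR-501-3p. Microglia markers summed to at most 18.1 CPM and smooth and cardiac muscle markers, relevant because muscle also uses Cacna1c, to at most 9.98 CPM. The part of these marker differences in the results that follow was not tested. In these bulk samples, fewer cells of a type and less RNA per cell cannot be told apart.

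All 8 genes were transcribed in control cultures, and N-type Cacna1b stood highest. Levels between genes were compared as CPM per kilobase of exon length. In control (mean ± SD, n = 2) the order was Cacna1b at 35.4 ± 0.36, Cacna1h at 20.6 ± 0.66, Cacna1a at 13.5 ± 0.65, Cacna1e at 10.9 ± 0.47, Cacna1c at 10.3 ± 0.19, Cacna1g at 7.34 ± 0.29, Cacna1d at 5.46 ± 0.078 and Cacna1i at 4.28 ± 0.11 CPM per kb. No neighbours in this order overlapped between their control libraries. All lay above the median of the tested genes, 3.74 CPM per kb, from the 52.6th percentile (Cacna1i) to the 92.8th (Cacna1b). The order depends on the length used. Divided by the length of the longest annotated transcript instead, the control libraries of Cacna1a and Cacna1e overlapped, and Cacna1e passed Cacna1a with anti-miR-409-5p. With anti-miR-501-3p the mean of Cacna1e passed that of Cacna1h too, but the libraries of these genes overlapped.

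In the anti-miR groups the order changed only where Cacna1a and Cacna1e met. With anti-miR-409-5p, Cacna1a was at 12.4 and Cacna1e at 12.2 CPM per kb, and with anti-miR-501-3p at 12.2 and 12.5, and in both groups their libraries overlapped. The other 6 genes kept their places. Outside the 8 genes, the retinal and skeletal muscle pore subunits were near absent: Cacna1f had 11 to 24 counts per library and passed no test, and Cacna1s had 1 to 10, too few to be tested.

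**Figure D2:**
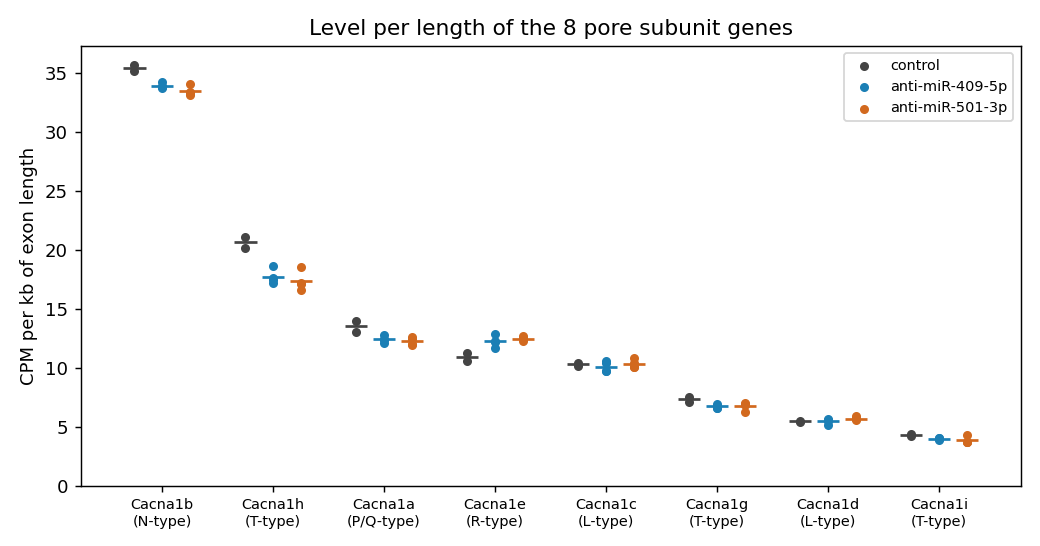
Level of each pore subunit gene in CPM per kb of exon length (y axis), ordered by its control mean: points are libraries (2 control, 4 per anti-miR) and lines group means. Cacna1b is highest and Cacna1i lowest in every group, and Cacna1a and Cacna1e meet in the anti-miR groups.

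Of the summed CPM per kb of the 8 genes, T-type genes made up 29.9% ± 0.098 in control (SD, n = 2), 27.7% ± 0.83 with anti-miR-409-5p (n = 4) and 27.4% ± 0.81 with anti-miR-501-3p (n = 4). The highest anti-miR library, at 28.7%, lay below the lower control library, at 29.8%. The share of Cacna1h went from 19.1% ± 0.52 to 17.3% ± 0.64 and 17.0% ± 0.56, and that of Cacna1e from 10.1% ± 0.49 to 11.9% ± 0.38 and 12.2% ± 0.23. Cacna1b kept about the same share in all groups, at 32.8%, 33.1% and 32.7%. The L-type pair made up 14.6%, 15.2% and 15.7%. The sum itself was 107.5 to 108.2 CPM per kb in control, 101.8 to 104.0 with anti-miR-409-5p and 100.6 to 104.3 with anti-miR-501-3p, so both anti-miR groups lay below control and overlapped each other. These shares are a description and were not tested. The T-type genes had 58.1 to 60.0% G and C in their longest transcript, against a median of 49.5% over the tested genes. The shares were not recomputed with the GC trend described below removed.

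Anti-miR-409-5p was first compared with scramble RNA to see which channel genes differed. R-type Cacna1e rose to 1.12 times its control level, and T-type Cacna1h and P/Q-type Cacna1a fell to 0.858 and 0.919 times theirs. These 3 of 8 genes passed the test (edgeR quasi-likelihood, Benjamini-Hochberg adjusted p under 0.05 over all tested genes), and the other 5 did not. Over all tested genes 27.8% passed, 15.6% as higher and 12.2% as lower, so the count among the 8 was near what the whole table shows. The 4696 genes were 2634 higher and 2062 lower, which became 2233 and 3074 with upper-quartile scaling and 2193 and 3209 with total count scaling. DESeq2 also called 3 of the 8, where it called 31.1% of its genes, and with edgeR 4 of the 8 had an unadjusted p under 0.05, as did 39.1% of all. The median log2 fold change was -0.087 over the 8 genes and -0.012 over all tested genes.

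Of the L-type genes, neither passed the test. Cacna1c was at 215.0 and 220.8 CPM in control and at 206.2, 205.6, 220.1 and 224.4 CPM with anti-miR-409-5p, and the groups overlapped. Its log2 fold change was -0.026 ± 0.045 (SE, edgeR adjusted p = 0.714). Cacna1c holds the only 8-base match to this microRNA in the family, 1952 bases past the stop codon in its longest UTR. Its other coding transcripts with a match have UTRs of 245 to 1573 bases and hold only that at 97 bases. Which of these transcripts the cultures made was not measured. Cacna1d was at 68.2 and 69.6 CPM against 65.4, 68.8, 70.6 and 71.9 CPM, also overlapping (log2 fold change 0.0062 ± 0.046, edgeR adjusted p = 0.938).

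Among the presynaptic and R-type genes, Cacna1e rose and Cacna1a fell. Cacna1e had 267.2 and 284.1 CPM in control and 295.3, 306.8, 308.6 and 324.3 CPM with anti-miR-409-5p. All 4 treated libraries lay above both control libraries, and the log2 difference was 0.16 ± 0.041 (edgeR adjusted p = 0.00724). Cacna1a had 159.4 and 148.9 CPM against 141.5, 140.6, 138.3 and 146.1 CPM. All 4 treated libraries lay below both controls, and the log2 difference was -0.12 ± 0.041 (edgeR adjusted p = 0.0352). Cacna1b, at 354.5 and 349.5 CPM against 335.2 to 339.6 CPM, did not overlap either but missed the threshold (-0.063 ± 0.033, edgeR adjusted p = 0.168).

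Among the T-type genes, Cacna1h fell. It had 206.1 and 196.9 CPM in control and 181.5, 171.8, 167.6 and 170.4 CPM with anti-miR-409-5p. No treated library reached the lower control, and the log2 fold change was -0.22 ± 0.046 (edgeR adjusted p = 0.00205), the largest change among the 8 genes in this comparison. Cacna1g had 72.3 and 76.5 CPM against 67.0 to 70.2 CPM (-0.13 ± 0.050, edgeR adjusted p = 0.0642), and Cacna1i 41.4 and 43.0 CPM against 37.9 to 39.8 CPM (-0.11 ± 0.058, edgeR adjusted p = 0.166). In all, 5 genes had every treated library below both controls and 1 had every one above, where 24.0% and 24.1% of all tested genes did so.

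Anti-miR-501-3p was then compared with the same 2 control libraries, which both comparisons share. The same 3 genes passed: Cacna1e rose to 1.14 times its control level, and Cacna1h and Cacna1a fell to 0.841 and 0.906 times theirs. Over all tested genes 33.0% passed, 17.6% as higher and 15.4% as lower. The split of 2974 higher and 2605 lower became 2540 and 3607 with upper-quartile scaling and 2452 and 3779 with total count scaling. DESeq2 called 3 of the 8 and 33.4% of its genes, and 6 of the 8 had an unadjusted p under 0.05 with edgeR, as did 42.6% of all. The median log2 fold change was -0.10 over the 8 genes and -0.012 over all.

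For the L-type genes, Cacna1c had 228.6, 212.6, 212.4 and 220.0 CPM with anti-miR-501-3p and overlapped the controls (log2 fold change 0.0036 ± 0.045, edgeR adjusted p = 0.964). Cacna1d had 70.5, 70.9, 72.0 and 74.3 CPM, all above both controls, and missed the threshold (0.062 ± 0.046, edgeR adjusted p = 0.320). It holds a miR-501-3p match 284 bases past its stop codon.

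Cacna1e had 313.7, 316.2, 308.4 and 319.5 CPM with anti-miR-501-3p, above both controls in 4 of 4 libraries. Its log2 fold change was 0.19 ± 0.041 (edgeR adjusted p = 0.00210). Cacna1a had 143.6, 137.3, 135.8 and 141.5 CPM, below both controls in 4 of 4 libraries, a log2 difference of -0.14 ± 0.041 (edgeR adjusted p = 0.0128). Cacna1b had 329.3 to 338.2 CPM, below both controls, and missed the threshold (-0.083 ± 0.033, edgeR adjusted p = 0.0625). Of the genes with a miR-501-3p match, then, Cacna1e rose, and Cacna1b, Cacna1d and Cacna1i did not pass the test.

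Cacna1h had 181.1, 167.2, 161.9 and 167.5 CPM, below both controls in 4 of 4 libraries, a log2 difference of -0.25 ± 0.046 (edgeR adjusted p = 0.000590). Cacna1g had 63.3 to 71.3 CPM, below both controls (-0.12 ± 0.050, edgeR adjusted p = 0.0739). Cacna1i had 42.2, 36.4, 36.9 and 36.7 CPM, of which the first lay between the controls (-0.15 ± 0.058, edgeR adjusted p = 0.0555). In all, 4 genes had every treated library below both controls and 2 above, where 25.6% and 24.3% of all tested genes did so.

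**Figure D3:**
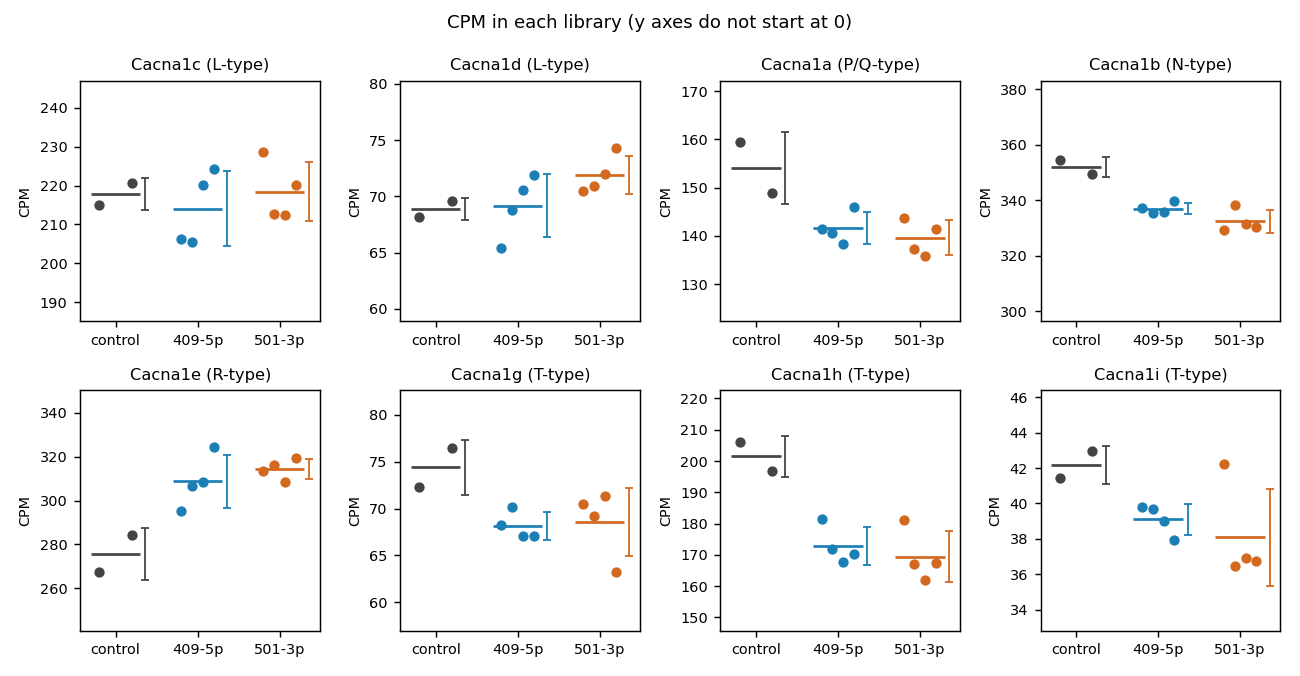
CPM of each gene in each library (points), with group means (lines) and SD (bars); the y axes do not start at 0. Cacna1e sits higher and Cacna1h and Cacna1a lower in both anti-miR groups than in control, and Cacna1c overlaps in all groups.

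These calls depended on control replicate 1. Without it, 1 control library is left, which is assumed to vary like the other groups. In that fit edgeR called 0 of the 8 genes with anti-miR-409-5p (3 at an unadjusted p under 0.05), and 1302 genes passed over the whole table, against 4696 with it. The log2 fold change with anti-miR-409-5p was -0.17 for Cacna1h (edgeR adjusted p = 0.0847), 0.13 for Cacna1e (edgeR adjusted p = 0.132) and -0.058 for Cacna1a (edgeR adjusted p = 0.519). With anti-miR-501-3p, Cacna1h alone passed without that library, at -0.20 (edgeR adjusted p = 0.0369), beside 0.16 for Cacna1e (edgeR adjusted p = 0.0651) and -0.080 for Cacna1a (edgeR adjusted p = 0.336), and 1800 genes passed in all, against 5579. The Cacna1a call with anti-miR-409-5p was also lost without any of anti-miR-409-5p replicates 1, 2 and 3 or anti-miR-501-3p replicates 2 and 4, at edgeR adjusted p of 0.0507 to 0.107, and with no filter on low counts (edgeR adjusted p = 0.0707). With anti-miR-501-3p it was lost without replicate 2 of that group (edgeR adjusted p = 0.0511).

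In the authors' deposited table, Cacna1e and Cacna1h passed with both anti-miRs, with adjusted p of 0.00780 and 0.000459 for anti-miR-409-5p and 9.08e-05 and 4.5e-05 for anti-miR-501-3p. For Cacna1a the authors' deposited table gives an adjusted p of 0.0917 with anti-miR-409-5p and 0.0263 with anti-miR-501-3p. The authors' deposited table thus leaves Cacna1a uncalled with anti-miR-409-5p, at a log2 fold change of -0.11 there.

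Transcript GC content moved with these differences. The percentage of G and C in the longest transcript was 48.3 for Cacna1e, 49.6 for Cacna1d, 50.3 for Cacna1c, 52.9 for Cacna1b, 58.1 for Cacna1g, 58.4 for Cacna1a, 59.3 for Cacna1i and 60.0 for Cacna1h, against a median of 49.5 over the tested genes. Across the 8 genes the log2 fold change ranked against GC content with a Spearman coefficient of -0.90 for anti-miR-409-5p and -1 for anti-miR-501-3p. Across 12811 expressed genes the coefficients were -0.79 and -0.80. These are descriptions across genes measured in the same libraries, and genes are not independent replicates. The slope on GC content also differed between the groups' libraries. It was taken on each gene's log2 deviation from its mean over the 10 libraries, so it compares libraries and gives no absolute slope. Per 10 percentage points of GC it was 0.26 and 0.20 in control. It lay between -0.11 and 0.037 with anti-miR-409-5p and between -0.13 and 0.0085 with anti-miR-501-3p. Whether this difference in slope arose in the cells or in library making cannot be told apart in this design.

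When the trend with GC content and length was removed per library, the differences of the 3 called genes shrank. With anti-miR-409-5p, 0 of the 8 genes passed with edgeR (2 at an unadjusted p under 0.05), where 7.46% of all tested genes did, 4.00% as higher and 3.46% as lower. With that trend removed Cacna1e was at 0.082 on the log2 scale (edgeR adjusted p = 0.0990), Cacna1h at -0.078 (edgeR adjusted p = 0.158) and Cacna1a at 0.0039 (edgeR adjusted p = 0.974). With anti-miR-501-3p, Cacna1e alone passed, at 0.12 ± 0.029 (edgeR adjusted p = 0.00713), where 10.1% of all tested genes passed, 5.50% as higher and 4.61% as lower. Cacna1h was at -0.070 (edgeR adjusted p = 0.189) and Cacna1a at 0.012 (edgeR adjusted p = 0.892).

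A fit with 1 surrogate variable takes no GC content as input, but the variable is estimated from the same counts. Whether it follows the GC slope was not tested. This fit kept Cacna1h and Cacna1a closer to their size, while Cacna1e with anti-miR-409-5p shrank nearly as far as with the trend removed. With anti-miR-409-5p, 0 of the 8 genes passed with edgeR (3 at an unadjusted p under 0.05), where 6.02% of all tested genes did. Cacna1h was then at -0.19 (edgeR adjusted p = 0.0533), Cacna1a at -0.16 (edgeR adjusted p = 0.0661) and Cacna1e at 0.098 (edgeR adjusted p = 0.211). With anti-miR-501-3p, 3 of the 8 passed, as did 21.5% of all tested genes: Cacna1h at -0.23 (edgeR adjusted p = 0.00262), Cacna1a at -0.17 (edgeR adjusted p = 0.00982) and Cacna1e at 0.15 (edgeR adjusted p = 0.0112).

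**Figure D4:**
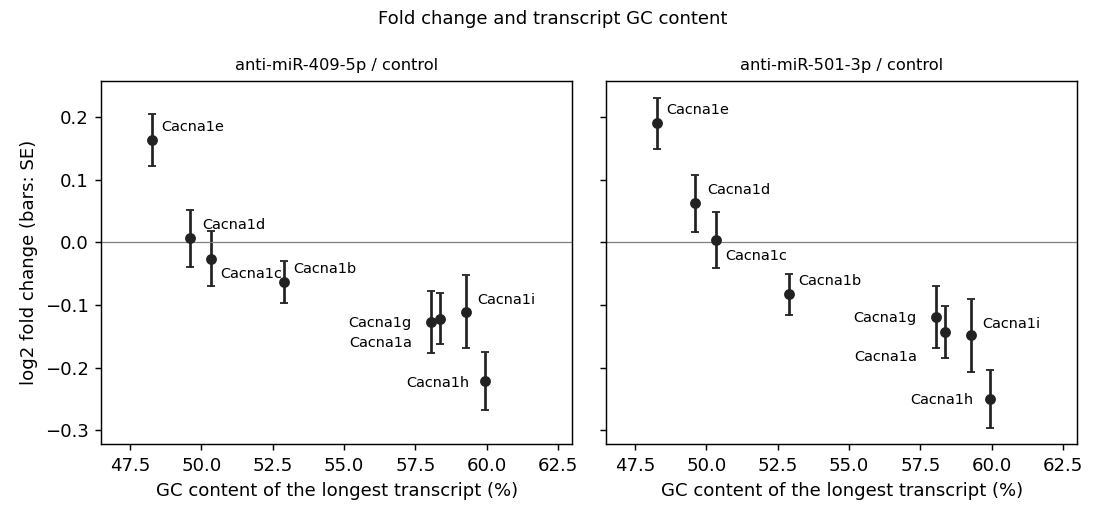
Log2 fold change against control (y axis, bars SE) and GC content of the longest transcript (x axis, percent) for the 8 genes. Cacna1e, lowest in GC at 48.3%, is highest, and Cacna1h, highest in GC at 60.0%, is lowest with both anti-miRs.

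The anti-miRs were compared with each other in the same fit of all 10 libraries. The control means do not enter this difference, but the control libraries enter the filter, the scaling and the shared estimate of spread. None of the 8 genes passed the test: edgeR called 0 of 8, 0 had an unadjusted p under 0.05, DESeq2 called 0, and the libraries of the groups overlapped for every gene. Over all tested genes 0.00% passed, with 992 genes (5.88%) at an unadjusted p under 0.05 and 3 (0.00932%) called by DESeq2. A fit with the replicate number as a block called 252 genes, none of them among the 8. With the trend removed 1 gene passed (0.00592%), none of the 8, and in 1.81% and 1.66% of the tested genes the libraries of one group lay wholly above or below those of the other. The 95% intervals of the log2 difference, anti-miR-501-3p over anti-miR-409-5p, were -0.047 to 0.11 for Cacna1c, -0.022 to 0.13 for Cacna1d, -0.092 to 0.050 for Cacna1a, -0.077 to 0.037 for Cacna1b, -0.044 to 0.096 for Cacna1e, -0.078 to 0.094 for Cacna1g, -0.11 to 0.051 for Cacna1h and -0.14 to 0.062 for Cacna1i. The intervals show which differences are compatible with these libraries, and they are not limits of detection.

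**Figure D5:**
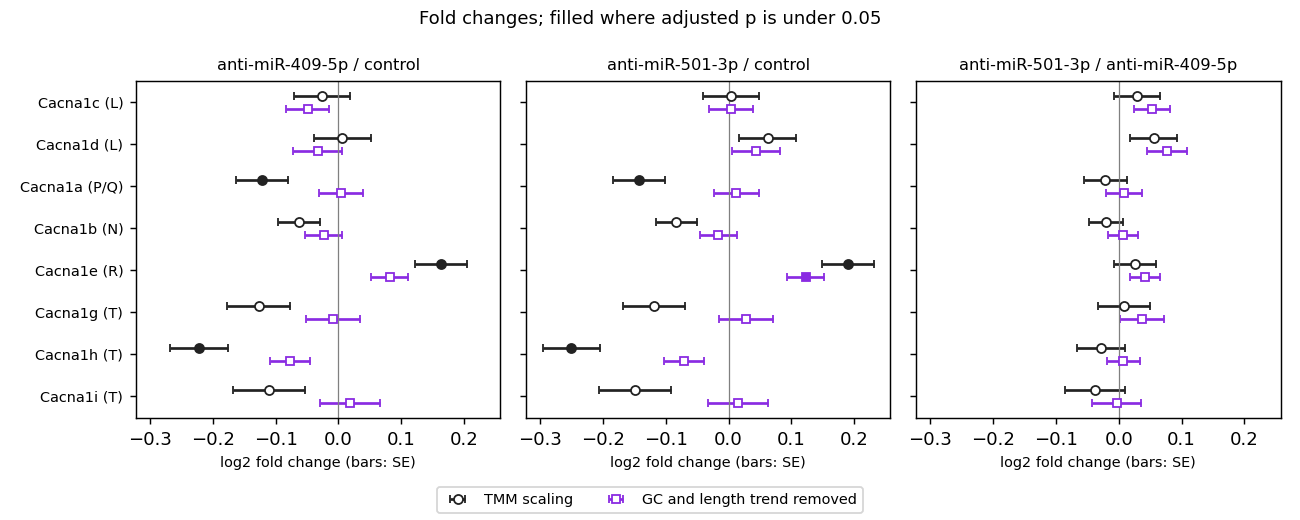
Log2 fold changes (x axis, bars SE) of the 8 genes in the 3 comparisons, with TMM scaling (black circles) and with the GC and length trend removed (purple squares); filled symbols have an adjusted p under 0.05. Cacna1a, Cacna1e and Cacna1h are filled in both comparisons with control, and after removal of the trend Cacna1e with anti-miR-501-3p alone.

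The partners of the pore were read in the same fits. Their counts stand against 15.6% of all tested genes higher and 12.2% lower with anti-miR-409-5p, and 17.6% and 15.4% with anti-miR-501-3p, and, with the GC and length trend removed, 7.46% and 10.1% called in either direction. Of the 8 auxiliary subunit genes, 3 rose and 2 fell with each anti-miR. Cacnb4, a beta subunit, was at 54.1 CPM in control and 83.9 CPM (anti-miR-409-5p) and 86.4 CPM (anti-miR-501-3p) in the treated groups (log2 fold changes 0.63 and 0.68, edgeR adjusted p = 7.89e-05 and 2.78e-05). Cacna2d1, an alpha2delta subunit, was at 181 CPM against 263 and 269 CPM (0.54 and 0.57, edgeR adjusted p = 0.000552 and 0.000253). Both passed after removal of the GC and length trend, at 0.29 and 0.31 for Cacnb4 and 0.22 with either anti-miR for Cacna2d1. Cacnb3, another beta subunit, fell from 140 to 123 and 121 CPM (-0.19 and -0.20), and after that removal was at 0.026 and 0.038 (edgeR adjusted p = 0.773 and 0.588). With anti-miR-501-3p, 1 of the other auxiliary subunit genes was called lower after that removal.

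Of the 9 active zone genes listed, 1 rose and 2 fell with each anti-miR. Erc2 rose (0.20 and 0.23), and Rims4 (-0.15 and -0.17) and Bsn (-0.14 and -0.13), which encodes the scaffold bassoon, fell. With the trend removed, Erc2 was at 0.098 (edgeR adjusted p = 0.0575) and 0.12 (edgeR adjusted p = 0.0108), while Rims4 (-0.024 and -0.027) and Bsn (-0.013 and 0.032) did not pass. Of 11 tested genes of calmodulin and other regulators, 2 rose and 2 fell with anti-miR-409-5p and 3 rose and 2 fell with anti-miR-501-3p. Of the calmodulin genes named here, Calm2 (0.20 and 0.24) rose and Calm3 (-0.12 and -0.11) fell. With the GC and length trend removed, Calm2 was at 0.068 and 0.078 and did not pass, and Calm3 had the opposite sign, 0.072 (edgeR adjusted p = 0.139) and 0.091 (edgeR adjusted p = 0.0388). A list of 14 genes covered signalling from calcium entry to the nucleus, together with target genes of that signal such as Bdnf. Of these, 5 rose with each anti-miR, and 2 fell with anti-miR-409-5p and 3 with anti-miR-501-3p. The risers included the transcription factor gene Creb1 (0.53 and 0.56), the calcineurin subunit gene Ppp3cb (0.50 and 0.58) and the neurotrophin gene Bdnf (0.36 and 0.32), and after removal of the trend Creb1 and Ppp3cb passed with both anti-miRs while Bdnf did not (0.077 and 0.0028).

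Genes that clear or store calcium were read next. Of 7 extrusion genes, 1 rose, the plasma membrane pump Atp2b1 (0.22 and 0.25), and 1 fell, the exchanger Slc8a2 (-0.14 and -0.18). With the trend removed neither of them passed, with Atp2b1 at -0.012 and 0.0067 and Slc8a2 at 0.011 and -0.00044. With each anti-miR, 1 of the other extrusion genes was then called lower. Over all tested genes 3.46% and 4.61% were called lower with the trend removed. Of 6 genes of release from the endoplasmic reticulum, 1 rose with anti-miR-409-5p, the ryanodine receptor Ryr3 (0.13, edgeR adjusted p = 0.0495; 0.067 and not called with the trend removed), and 0 passed with anti-miR-501-3p with edgeR (0 at an unadjusted p under 0.05, 0 with DESeq2). Of 4 calcium-activated potassium channel genes 0 passed with edgeR. With anti-miR-409-5p 3 and with anti-miR-501-3p 4 had an unadjusted p under 0.05 with edgeR, and DESeq2 called 1 and 0. Over all tested genes 39.1% and 42.6% had an unadjusted p under 0.05 with edgeR, and DESeq2 called 31.1% and 33.4% of its genes. The named genes that rose had GC contents of 39.6 to 49.0%, and those that fell 56.2 to 61.3%.

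Across the 10 libraries, with group differences included, the genes most like each channel gene were found by Pearson correlation of log2 CPM among 12803 candidates. For Cacna1h these were Lrrn2 (0.993) and Lrrc24 (0.990), for Cacna1e Lnpep and Onecut2 (both 0.983), and for Cacna1a Phf2 (0.968) and Smarca4 (0.965). For Cacna1b they were Eif5al3-ps (0.970) and Hdgfl2 (0.955), for Cacna1g Bcat2 (0.960) and Tmem86a (0.959), and for Cacna1i Ogg1 (0.966) and Dbndd1 (0.963). For the L-type genes, Cacna1c was matched with Tcf7l2 (0.877), and Cacna1d with Prkg1 (0.934) and Abcg2 (0.909). The points share the libraries and their GC slopes. Lrrn2 and Lrrc24 had GC contents of 60.4 and 61.0%, beside 60.0% in Cacna1h, and Lnpep and Onecut2 of 40.3 and 42.6%, beside 48.3% in Cacna1e.

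Among the 8 genes themselves, Cacna1a and Cacna1h correlated at 0.897 over the 10 libraries and at 0.612 after each group's mean was removed. Cacna1e and Cacna1h correlated at -0.876 and, within groups, at -0.422. Cacna1d and Cacna1e correlated at 0.622 and 0.792, so that these varied together among replicates of a group.

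The genes lie on 8 chromosomes, Cacna1a and Cacna1i on the plus strand and the others on the minus strand. In mm10, Cacna1c is at chr6:118587240-119196418, Cacna1d at chr14:30039939-30491455, Cacna1a at chr8:84388440-84640246, Cacna1b at chr2:24603887-24763152, Cacna1e at chr1:154390731-154884501, Cacna1g at chr11:94408391-94474198, Cacna1h at chr17:25374285-25433783 and Cacna1i at chr15:80287238-80398279. They span from 59499 bases (Cacna1h) to 609179 bases (Cacna1c) and have 6 (Cacna1i) to 27 (Cacna1c) annotated transcripts. The kit does not mark strand, so reads from exons that overlap a gene on the other strand cannot be told apart. This concerns 589 bases of Cacna1d (Chdh), 435 of Cacna1a (Gm16183) and 158 of Cacna1h (Tpsg1), and the partner genes had at most 13, 21 and 7 counts in a library. Each of the 8 genes had between 859 and 10715 counts in a library.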

How the data were processed

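The submitters' processing notes name build mm10 and the tools STAR 2.5.2b, FastQC 0.11.5, Subread 1.5.1 and featureCounts. The annotation release, strand setting and treatment of multi-mapping reads are not given in the sources used here. Per the labels' protocols, TruSeq RNA v2 libraries gave single-end reads of 50 bp on a HiSeq2000. For every library the authors deposited a table of raw counts by Ensembl identifier, not normalized. For each anti-miR they added a table of its comparison with control, which holds log2 fold changes, p-values and adjusted p-values, test scores (the fold change over its SE) and normalized signal per library, per the file headers; its column names are those of DESeq2's results, and the tool is not stated. Of these, the log2 fold changes and adjusted p-values were used for side-by-side values.

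Computed here in R 4.3.3: 48349 of 48709 genes were matched to GENCODE M21 (mm10) by Ensembl identifier. filterByExpr left 16884 genes, scaled by TMM. edgeR 4.0.16 (quasi-likelihood, robust, two-sided) was fitted to all 10 libraries in 3 groups with no covariate, with Benjamini-Hochberg adjustment at 0.05. The SE is the log2 fold change over the square root of F, and 95% intervals use the t quantile at the fit's degrees of freedom. CPM uses TMM-scaled totals, log2 CPM a prior count of 2, and CPM per kb the merged exon length. GC content is that of the longest annotated transcript of any type; the GC and length trend was fitted per library with splines of 5 degrees of freedom over genes whose mean log2 CPM exceeded 1. Alternatives were DESeq2 1.42.0, upper-quartile and total count scaling, no filter, 2 groups alone, a replicate block, removal of the GC and length trend, 1 surrogate variable (sva 3.50.0) and leaving out each library. Totals were 22254788 to 32096808 counts, and intervals cover the spread between libraries. The edgeR step was tested on simulated counts.

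The 8 genes, the marker lists and the pathway lists were chosen with earlier results of these data known. Named genes were the 8 members, Cacna1s and Cacna1f, the 3 genes of each pathway list with the smallest p against control, and the 2 genes most correlated with each member; some genes that the rule names are not reported here.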

Additional observations from a re-analysis of the deposited data

Results flagged for a closer look

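In anti-miR-501-3p replicate 1, T-type Cacna1i was at 42.2 CPM, while the other 3 libraries of that group lay at 36.4 to 36.9 CPM. The gap to the nearest of them was 0.918 of the group's range, above the 95% critical value of Dixon's test for 4 samples. Of 16 such groups (8 genes in 2 anti-miR groups) this was the 1 that stood out, and chance gives about 1 in 20 for each group. Without that library, the log2 fold change of Cacna1i with anti-miR-501-3p was -0.20 (edgeR adjusted p = 0.00380), past the threshold that it missed with all libraries. That library was picked by its Cacna1i value, which lay between the controls. Leaving it out was therefore bound to widen the difference, and the pass is no separate evidence of a change.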

How the results depend on the processing

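The number of the 8 genes called with anti-miR-409-5p was 3, and it was 5 with upper-quartile or total count scaling, which added Cacna1b and Cacna1g. It was 0 with the GC and length trend removed and 0 with 1 surrogate variable, with 2 and 3 genes at an unadjusted p under 0.05. With anti-miR-501-3p it was 3, 6 with either scaling and 1 with the trend removed. Leaving out each library gave 0 to 3 and 1 to 4 genes. Over all genes, removal of the trend called 1259 and 1707, 1 surrogate variable 1017 and 3637, and leaving out each library 1302 to 5111 and 1800 to 6075, against 4696 and 5579. For the anti-miRs against each other, 0 genes were called, and 3 with DESeq2, 42 with no filter, 1 with those groups alone, 1 with the trend removed and 0 to 1 without each library. The cause was not tested.

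Some signs reversed. With anti-miR-409-5p, Cacna1d went from 0.0062 to -0.034 (upper-quartile), -0.039 (total count), -0.033 (trend removed) and -0.066 (surrogate variable), and without single libraries ranged from -0.014 to 0.037, as Cacna1c did from -0.050 to 0.00059. With anti-miR-501-3p, Cacna1c went from 0.0036 to -0.038 (upper-quartile), -0.045 (total count) and -0.044 (surrogate variable), and without single libraries from -0.015 to 0.029. With the trend removed, genes that were lower also turned: Cacna1a became 0.0039 and Cacna1i 0.018 with anti-miR-409-5p, and Cacna1a 0.012, Cacna1g 0.028 and Cacna1i 0.014 with anti-miR-501-3p. Between the anti-miRs, the removal gave 0.0082 for Cacna1a, 0.0066 for Cacna1b and 0.0075 for Cacna1h, the surrogate variable -0.017 for Cacna1g, and single libraries left out -0.011 to 0.044 for Cacna1g.

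With the replicate number as a block, 252 genes were called between the anti-miRs, and none of the 8. The blocked fit called 3 of the 8 genes with anti-miR-409-5p and 4 with anti-miR-501-3p, adding Cacna1b (edgeR adjusted p = 0.0281), and gave -0.028 for Cacna1d with anti-miR-409-5p and -0.017 for Cacna1c with anti-miR-501-3p. The numbers were not taken as pairing the libraries: deviations of same-numbered anti-miR libraries correlated at 0.174, 0.0893, 0.0639 and 0.149, although 8 of 8 libraries correlated best with their own number, a hint from the data and not the design. The 2 control libraries limit every comparison with control.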
